A study of Homo sapiens with 27 samples.

Results

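REH, an ETV6/RUNX1-positive B-cell precursor acute lymphoblastic leukemia cell line, was treated with either of 2 antisense oligonucleotides against the same long non-coding RNA, lnc-RTN4R-1, and the transcriptomes were set directly against each other. The libraries were taken by their treatment label: 3 with lnc-RTN4R-1 LNA GapmeR1 and 3 with lnc-RTN4R-1 LNA GapmeR2, paired by replicate number, which makes 6 of the 27 libraries of the series. Cells of both groups took up the GapmeR from the medium at 10 µM and were harvested after 72 h, so the groups differ in the oligonucleotide and in nothing else that the labels give. All libraries came from a single cell line, and the methods describe biological triplicates made on different days. No control library entered the test. Levels in 5 control libraries, 3 with a non-targeting GapmeR (NTC) and 2 with medium only, are given beside some values as a reference and were not tested.

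A GapmeR is a short single-stranded antisense oligonucleotide with a central stretch of DNA between flanks of locked nucleic acid (LNA), a modification that tightens pairing with RNA. Paired DNA and RNA are recognised by RNase H1, a nuclear and mitochondrial nuclease that cleaves the RNA strand, which makes GapmeRs usable against nuclear transcripts and against unspliced RNA including introns. Independent oligonucleotides against a single transcript share the intended target, while the other transcripts that each can pair with differ between them. lnc-RTN4R-1 is annotated as LINC02891 (ENSG00000249923) at chr22:20198729-20204918 on the minus strand of hg38, with 4 exon blocks in GENCODE. The sequences below are those of both GapmeRs as designed, 5′ to 3′, and of the RNA-sense DNA letters that pair with them in full; they carry the comparison because all site searches further on start from them.
GapmeR1: gcattcatgggttaag
GapmeR1 target site: cttaacccatgaatgc
GapmeR2: tgctgagacatctagg
GapmeR2 target site: cctagatgtctcagca
Both are 16 bases long, with a GC content of 43.8% for GapmeR1 and 50% for GapmeR2. The GapmeR1 site lies at chr22:20200478-20200493 in exon block 3 counted from the 5′ end, and the GapmeR2 site at chr22:20198858-20198873 in exon block 4, 129 bases from the annotated 3′ end.

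Between 17344682 and 21166987 reads were counted on genes per library, with 22109 to 23300 genes detected, and 73.3 to 76.5% of reads assigned to a gene. Fewer genes were detected in each of the 3 GapmeR2 libraries (at most 22396) than in any GapmeR1 library (at least 23052). The GapmeR2 libraries were also all shallower, with 17344682 to 18468182 reads against 18927916 to 21166987, and the part of either in the results was not tested. Of 13 B-cell precursor markers, 12 exceeded a mean of 1 CPM (counts scaled to library size) in both groups, with a summed level of 6430 to 6810 CPM with GapmeR1 and 6210 to 6570 CPM with GapmeR2, while VPREB1, the surrogate light chain component, had no read in any of these libraries. T-cell markers summed to 16.4 to 23.1 CPM with GapmeR1 and 13.3 to 24.0 CPM with GapmeR2, nearly all of it TRAC, and CD3D, CD3G and CD7 had no read. Erythroid and megakaryocytic markers summed to at most 3.47 CPM, and no read fell on the globin genes HBA1, HBA2 and HBB. Myeloid markers are described with MPO below.

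The intended target was measured first. lnc-RTN4R-1 reached 6.00, 6.50 and 5.01 CPM in the GapmeR1 libraries of replicates 1, 2 and 3, and 5.06, 5.65 and 3.41 CPM in the GapmeR2 libraries, from 59 to 135 reads per library. GapmeR1 was the higher of both in all 3 pairs, but the groups overlapped. The fitted difference was 0.33 ± 0.13 (log2, SE), a 1.25-fold difference with an adjusted p of 0.0662 in edgeR's quasi-likelihood test, and the 2-sided exact permutation test of 3 against 3 libraries gave p = 0.2, with 0.1 as its smallest possible value. The permutation test took no account of the pairing and could not fall under 0.05, so it decides nothing here. The control libraries held 18.3 to 24.4 CPM, so that the mean level was 28.1% of the control mean with GapmeR1 and 22.7% with GapmeR2. At this depth a difference in target level between the GapmeRs was not established.

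Beyond the target, the transcriptomes were far apart. Of 14904 genes tested with the replicate number as a block, 4609 (30.9%) had an adjusted p under 0.05 (edgeR quasi-likelihood), 2329 of them higher (15.6%) and 2280 lower (15.3%) with GapmeR1. Most differences were small: 83.1% of those called were under 1.5-fold, and the median absolute log2 fold change among them was 0.27. Without the block, 882 genes (5.92%) were called, 555 higher and 327 lower, and each of these was also called with the block in the same direction. At least 2-fold differences were called for 287 genes (1.93%), 220 higher (1.48%) and 67 lower (0.45%) with GapmeR1, so large differences were more often on the side higher with GapmeR1. Without replicate 2 the count of all called genes was 2786, and at least 2-fold differences were called for 281.

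**Figure D1:**
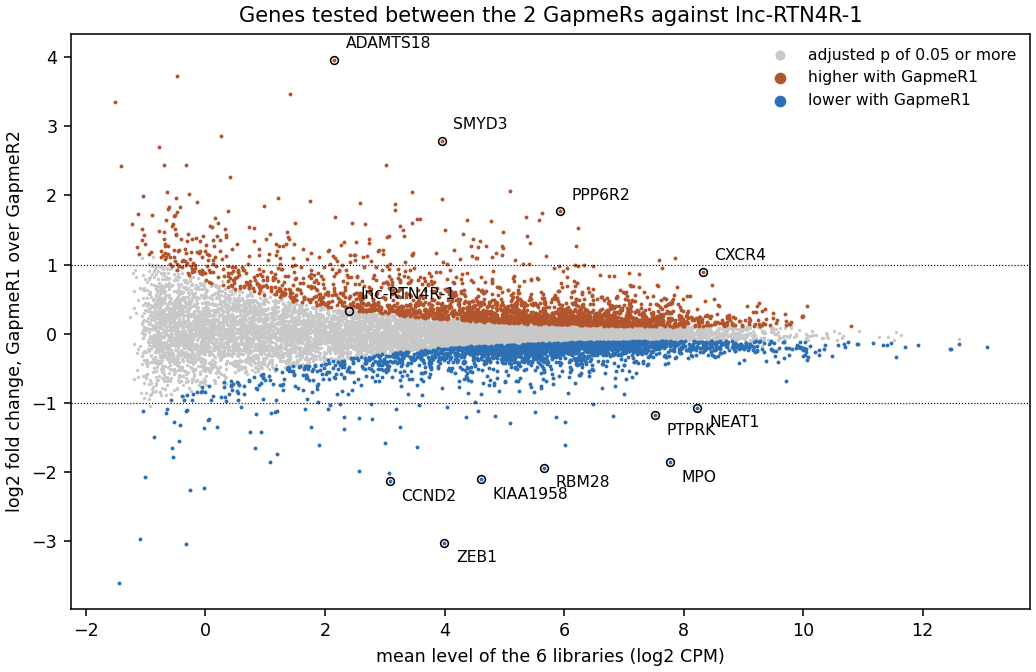
Each point is 1 of 14904 genes, with the mean level of the 6 libraries in log2 CPM on the x axis and the log2 fold change of GapmeR1 over GapmeR2 on the y axis; orange and blue points have an adjusted p under 0.05 and dotted lines mark 2-fold. lnc-RTN4R-1 lies near 0 at 0.33, whereas ADAMTS18 and ZEB1 stand far above and below it at 3.96 and -3.03.

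Among the largest differences on the side lower with GapmeR1, the GapmeR1 libraries lay below the controls for a transcription factor, a ribosome assembly protein and a lipid enzyme. ZEB1, a zinc finger repressor best known for silencing epithelial genes and also active in lymphocyte development, had 3.70, 2.79 and 3.88 CPM with GapmeR1 against 28.9, 28.1 and 28.3 CPM with GapmeR2. The groups were 8.15-fold apart (log2 fold change -3.03 ± 0.10 SE, adjusted p = 3.75e-17), and the controls ranged from 34.1 to 39.7 CPM. RBM28, a nucleolar RNA-binding protein of ribosome assembly, had 20.6, 22.7 and 19.3 CPM against 80.4, 83.6 and 78.4 CPM. Its 3.84-fold difference (adjusted p = 4.16e-18) came with controls of 78.1 to 88.7 CPM, a range that the GapmeR2 libraries share. KIAA1958 measured 9.59, 8.38 and 9.56 CPM against 40.7, 36.6 and 42.0 CPM, 4.29-fold apart, with controls of 45.8 to 55.7 CPM. AGPAT3, an acyltransferase of phospholipid synthesis, had 31.6, 29.8 and 34.2 CPM against 94.4, 101 and 98.5 CPM, 3.04-fold apart, with controls of 83.6 to 101 CPM. For all 4 genes the GapmeR1 libraries lay below every control library, and for ZEB1 and KIAA1958 the GapmeR2 libraries did so too.

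In a second set, also lower with GapmeR1, the GapmeR2 libraries lay above the controls. CCND2, a D-type cyclin that drives entry into the cell cycle, had 2.55, 2.89 and 3.88 CPM with GapmeR1, 11.5, 14.4 and 15.4 CPM with GapmeR2 and 2.52 to 4.69 CPM in the controls, a 4.39-fold difference between the GapmeRs (adjusted p = 6.02e-13). MPO, the myeloperoxidase of neutrophil granules, had the smallest p of all genes: 85.0, 80.2 and 116 CPM against 292, 295 and 447 CPM, with 84.8 to 131 CPM in the controls (3.62-fold, adjusted p = 3.75e-20). MPO is a myeloid marker. Of 5 listed myeloid markers tested, it and CSF3R, the receptor for G-CSF, were called lower with GapmeR1 and 0 higher, with a median of -0.41. Over all genes tested 15.3% were called lower, and without the block only MPO of these 5 was. CSF3R had 12.3, 12.7 and 18.4 CPM against 17.2, 17.3 and 30.9 CPM, which overlap. ITGAM was not called and had the other direction in each pair, with 5.11, 3.85 and 6.08 CPM against 4.65, 2.68 and 5.14 CPM. Without MPO the 11 listed markers summed to 19.7 to 26.7 CPM with GapmeR1 and 23.3 to 40.2 CPM with GapmeR2, and S100A8, S100A9, FCN1 and ELANE had no read in any library of either group. MRC1, the macrophage mannose receptor, was 4.05-fold lower with GapmeR1, whose libraries lay below every control, P2RY14, a receptor for nucleotide sugars, 3.97-fold, and TMEM236 3.10-fold. PTPRB and CACNA2D2 were at log2 fold changes of -1.85 and -1.61. For these 5 genes too all GapmeR2 libraries lay above every control. CCDC159, at -1.74, was different, with 0.626, 1.54 and 0.971 CPM against 3.37, 3.24 and 4.05 CPM and controls of 2.41 to 3.72 CPM.

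On the side higher with GapmeR1, the genes with the largest folds or smallest p included SMYD3, ASH2L, PPP6R2, STAU2, HS2ST1, GLCE and ADAMTS18. SMYD3, a lysine methyltransferase, had 26.9, 28.2 and 26.0 CPM with GapmeR1 and 4.36, 3.52 and 3.93 CPM with GapmeR2, a 6.92-fold difference (log2 fold change 2.79 ± 0.10 SE, adjusted p = 6.1e-17) beside controls of 30.6 to 34.7 CPM. ASH2L, a core subunit of the complexes that methylate histone H3 lysine 4, had 77.0, 79.5 and 71.5 CPM against 22.7, 24.4 and 21.2 CPM. PPP6R2, a regulatory subunit of protein phosphatase 6, had 92.3, 95.3 and 95.9 CPM against 26.2, 27 and 30.9 CPM. STAU2, a double-stranded RNA-binding protein of RNA transport, had 65.3, 61.7 and 60.6 CPM against 20.8, 19.5 and 18.5 CPM. In these 3 genes the groups were 3.37-, 3.41- and 3.22-fold apart and the GapmeR2 libraries lay far below every control library, while at least 1 GapmeR1 library was within the control range. HS2ST1 and GLCE, which both modify heparan sulfate chains, were 2.89- and 3.84-fold higher with GapmeR1. The largest fold among all genes called belonged to ADAMTS18, a secreted protease, at 7.72, 8.67 and 8.64 CPM against 0.814, 0.559 and 0.231 CPM, or 15.6-fold (log2 fold change 3.96 ± 0.22 SE), with as few as 4 reads in a GapmeR2 library. DLGAP2, a postsynaptic scaffold protein, followed among the genes named by size with 4.38, 4.67 and 5.57 CPM against 0.698, 0.224 and 0.405 CPM, 11.1-fold apart and again with as few as 4 reads. GRIP1, the pseudogene AFG3L1P, whose reads can be shared with its functional relatives, LHPP, AHRR, LPAR4, RCN3 and the non-coding ENSG00000229425 were likewise between 1.84 and 2.44 apart on the log2 scale. For CD96, a receptor of T and natural killer cells, the GapmeR2 libraries (0.931, 0.615 and 1.33 CPM) overlapped the control range of 0.959 to 1.56 CPM, and the GapmeR1 libraries (3.49, 3.08 and 4.50 CPM) lay above it. For RCN3 the GapmeR1 libraries (12.1, 12.3 and 17.6 CPM) also lay above the controls of 6.19 to 11.8 CPM. Of its GapmeR2 libraries (2.73, 2.24 and 6.94 CPM), only that of replicate 3 was within the control range and the others lay below it.

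**Figure D2:**
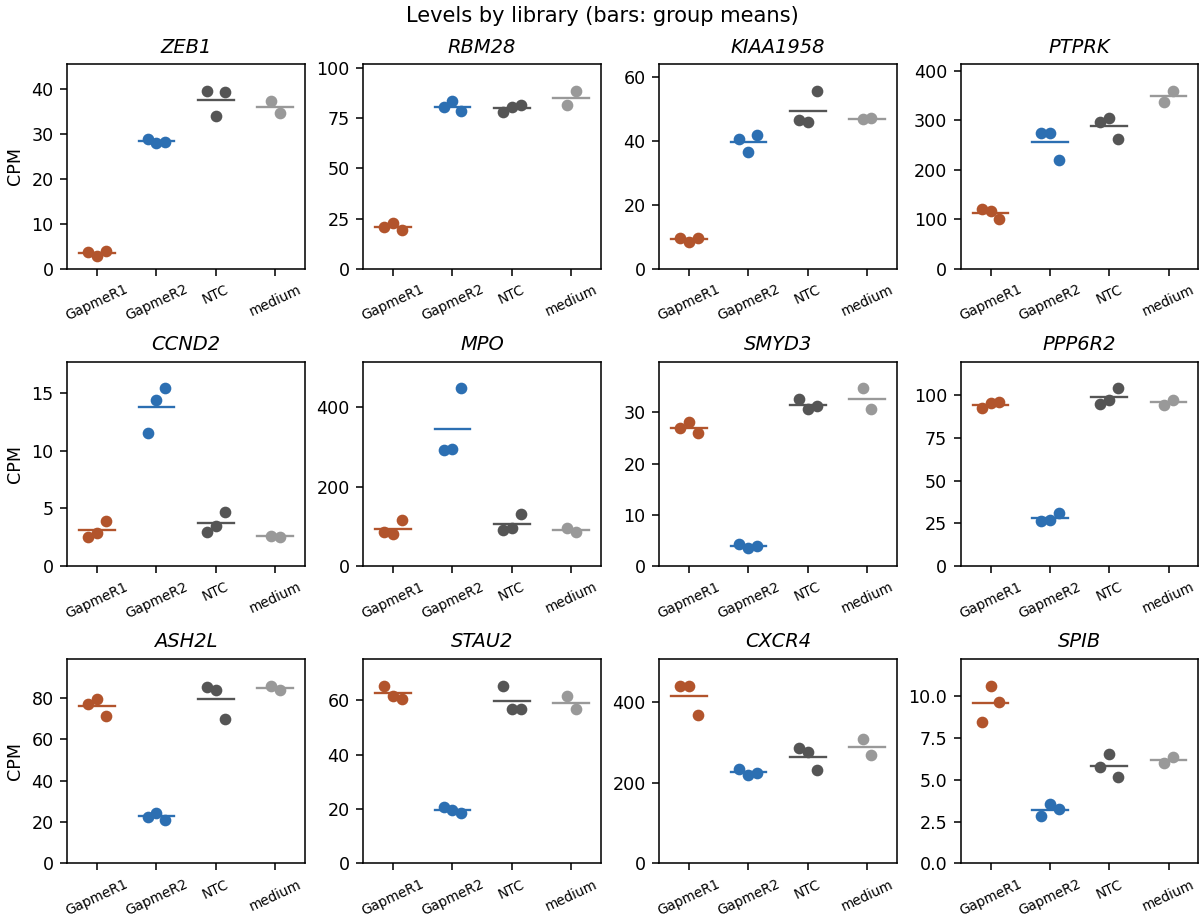
Levels in CPM (y axis) of 12 genes in each GapmeR1, GapmeR2, NTC and medium library; each point is a library and each bar a group mean. GapmeR1 and GapmeR2 do not overlap in any of the 12 genes, which were picked from those called. Over all genes tested the groups did not overlap in 27.1%. The group further from the controls is GapmeR1 for ZEB1, RBM28 and KIAA1958, but GapmeR2 for CCND2, MPO, SMYD3, PPP6R2, ASH2L and STAU2.

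Set beside the 5 controls, the genes at least 2-fold apart fell into unequal groups. Of the 220 higher with GapmeR1, 97 had all GapmeR2 libraries below every control while GapmeR1 overlapped the controls, 40 had all GapmeR1 libraries above every control while GapmeR2 overlapped them, 24 had both, 53 had neither and in 6 both groups lay below the controls. Of the 67 lower with GapmeR1, 34 had only GapmeR2 outside the controls, above them, 17 had only GapmeR1 outside, below them, 5 had both, 8 had neither and in 3 both groups lay below. ZEB1 and KIAA1958 are of the last kind. So is SCMH1, a Polycomb protein: 18.6, 19.6 and 20.7 CPM with GapmeR1, 46.0, 49.3 and 49.8 CPM with GapmeR2 and 89.8 to 99.0 CPM in the controls. These positions are a description of the libraries without a test. They are given for genes already at least 2-fold apart, with no share over all genes tested to set beside them.

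The sense strand of each annotated gene was then searched for letters that pair with a GapmeR. Over both strands of the genome GapmeR1 had 1 full match, 64 sites with 1 mismatch and 1400 with 2, and GapmeR2 had 2, 90 and 1635. Among genes tested, only lnc-RTN4R-1 held a full match in its sense strand, and it is left out of the counts that follow. For GapmeR2, 10 further genes tested held a site with 1 mismatch, and 9 of them were called lower with GapmeR2: ACADM, a dehydrogenase of fatty acid oxidation, CDC73, ITCH, ARID1B, EHMT1, TUT7, RALGPS1, C14orf132 and ENSG00000236453, beside 15.6% of all genes tested. BANP was the exception at a log2 fold change of 0.18 (adjusted p = 0.103). Without the block, 70% of the 10 were called lower with GapmeR2, beside 3.72% of all genes tested. Of the 10, 6 span more than 100 kb. Among all genes tested, 34.5% of those spanning 100 to 300 kb and 52.7% of those over 300 kb were called lower with GapmeR2 (with the block). For GapmeR1 there were 5 such genes, of which RERE, a transcriptional corepressor, was called lower with GapmeR1 (52.0, 57.1 and 67.2 CPM against 122, 116 and 122 CPM), PTPRD was called higher, and SVIL, CYRIA and SCN1A-AS1 were not called. All 5 span more than 100 kb. With up to 2 mismatches, 30 of 186 genes (16.1%) were called lower and 65 higher with GapmeR1, beside 15.3% and 15.6% of all genes tested. For GapmeR2, 114 of 264 (43.2%) were called lower and 18 higher with it, and 170 of the 264 span more than 100 kb.

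An uninterrupted run of at least 13 pairing bases was searched for as well, a criterion chosen after the values were seen, as were the genes named for it. The sites shown were picked from genes with differences in both directions, with letters that do not pair in capitals and positions counted from 1 at the 5′ end of the site.
ZEB1 and PTPRK, GapmeR1: cAGaacccatgaatgc
RBM28, GapmeR1: GGGaacccatgaatgc
RERE, GapmeR1: Gttaacccatgaatgc
MAP4K3, GapmeR1: cAAaacccatgaatgc
AGPAT3, GapmeR1, run of 12: cAtGacccatgaatgc
GLCE, GapmeR2: GTtagatgtctcagca
PPP6R2, GapmeR2: AACagatgtctcagca
RALGPS2, GapmeR2: cAGagatgtctcagca
CD47, GapmeR2: GAAagatgtctcagca
EHMT1, GapmeR2: ccCagatgtctcagca
PTPRD, GapmeR1: cttaacccatgaatCc
PTPRM, GapmeR2: ActagatgtctcagGa
RTTN, GapmeR2: cctagatgtctcagTC
The ZEB1 site at chr10:31343798-31343813 (plus strand) and the PTPRK site at chr6:128048648-128048663 (minus strand) are intronic and differ from the target site by T2A and T3G. The RBM28 site at chr7:128308660-128308675 (minus strand) is exonic, with C1G, T2G and T3G. RERE (chr1:8568519-8568534, minus strand) and MAP4K3 (chr2:39351112-39351127, minus strand) hold intronic sites, and so does AGPAT3 (chr21:43874444-43874459, plus strand). Of the GapmeR2 sites, that of GLCE at chr15:69270920-69270935 is exonic, and those of PPP6R2 (chr22:50375056-50375071), RALGPS2 (chr1:178796456-178796471), CD47 (chr3:108089074-108089089) and EHMT1 (chr9:137793639-137793654) are intronic. The last 3 lines are the intronic sites of PTPRD (chr9:8998788-8998803, minus strand), PTPRM (chr18:8232996-8233011, plus strand) and RTTN (chr18:70133013-70133028, minus strand). In these the run stops short of the 3′ end of the site, which faces the 5′ end of the GapmeR, while in the other lines it reaches that end. PTPRM and RTTN, at 1.5 and 1.62, were lower with the GapmeR that they pair with, and PTPRD, at 1.56, was higher with it.

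Leaving out the target, 44 genes tested held such a run for GapmeR1, and 19 (43.2%) were called lower and 11 higher with it, beside 15.3% of all genes lower with GapmeR1. For GapmeR2 there were 50 genes, 37 (74.0%) called lower and 4 higher with it, with a median log2 fold change of 0.57 in favour of GapmeR1. Without the block these counts were 6 lower and 5 higher of 44 (13.6%) for GapmeR1 and 25 lower and 1 higher of 50 for GapmeR2. In that fit 2.19% of all genes tested were called lower with GapmeR1 and 3.72% lower with GapmeR2. A split by the place of the run was also chosen after the values were seen, and the genes shown above are counted in it, so it is a description only. Where the run reached the 3′ end of the site, 10 of 12 genes were called lower with GapmeR1 (median -0.63) and 20 of 22 lower with GapmeR2 (median 0.85). Where it stopped short, the counts were 9 of 32 (median 0.02) and 17 of 28 (median 0.26). Without the replicate block, 6 of the 12 and 17 of the 22 were called lower with the matched GapmeR, beside the same 2.19% and 3.72%. PRR5L went the other way for GapmeR1 at 0.29, and CD34, a stem cell antigen, for GapmeR2 at -1.42. CD47, the "do not eat me" signal of the cell surface, had 194, 190 and 203 CPM with GapmeR1 and 120, 99.9 and 106 CPM with GapmeR2. RALGPS2, an exchange factor for Ral GTPases, had 106, 102 and 102 CPM against 47.7, 42.7 and 40.6 CPM. Most of the 287 genes at least 2-fold apart had no such run. Of the 220 higher with GapmeR1, 12 held a run for GapmeR2 and 5 a run for GapmeR1. Of the 67 lower, 4 held one for GapmeR1 and 2 one for GapmeR2. Over all 14904 genes tested, 50 held a run for GapmeR2 and 44 one for GapmeR1, so runs were rare among genes in general. SMYD3, ASH2L, STAU2, HS2ST1, ADAMTS18, FYN and NEAT1 had neither a run nor a site with up to 2 mismatches. KIAA1958, lower with GapmeR1, held a site with 2 mismatches for GapmeR2 only. A match is a description of letters, and whether any of these RNAs was cleaved was not tested.

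**Figure D3:**
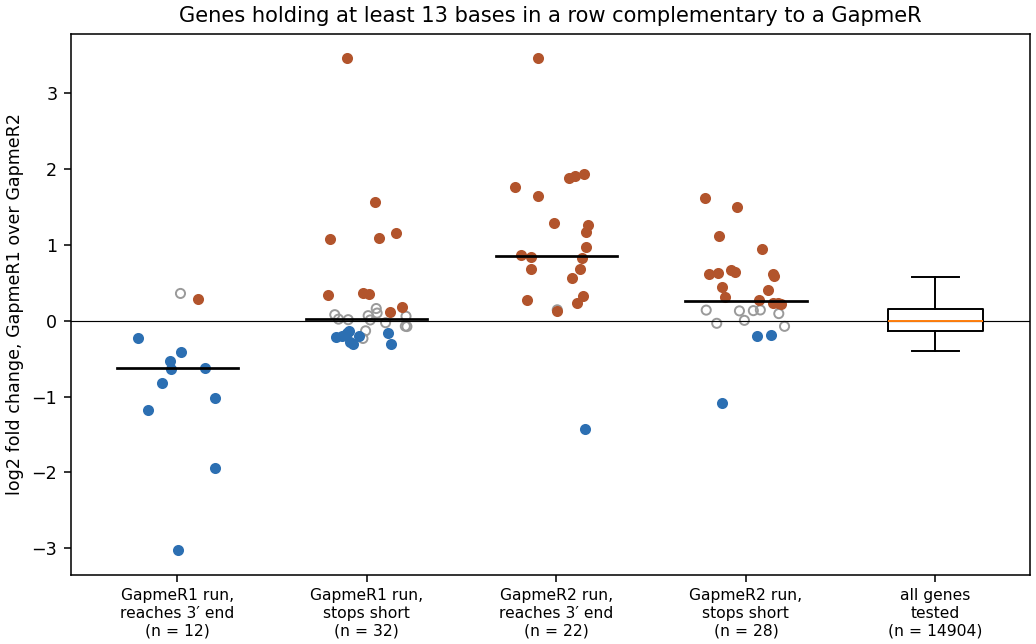
Log2 fold change of GapmeR1 over GapmeR2 (y axis) for genes with at least 13 pairing bases in a row, by GapmeR and by whether the run reaches the 3′ end of the site; filled points are called, open points are not, bars are medians, and the box shows the quartiles of all genes tested with whiskers at the 5th and 95th percentiles. The medians are -0.63 and 0.02 for GapmeR1 and 0.85 and 0.26 for GapmeR2.

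The genes called also differed in the length of DNA they span. Among genes under 10 kb, 6.37% were called higher and 17.2% lower with GapmeR1, and among genes over 300 kb 52.7% higher and 7.39% lower. The median log2 fold change went from -0.07 in the shortest class over -0.05, 0.02 and 0.10 to 0.27 in the longest. Of the 433 genes over 300 kb, 53 (12.2%) were at least 2-fold higher and 3 (0.693%) at least 2-fold lower with GapmeR1. The median span was 83.9 kb for the genes at least 2-fold higher with GapmeR1, 40.1 kb for those at least 2-fold lower and 26.1 kb for all genes tested with an annotated span. Without the block, 26.6% of the longest genes and 1.21% of the shortest were called higher with GapmeR1. GRIP1, PTPRG, PTPRM, PTPRD, SMYD3 and DLGAP2, all over 300 kb, are members of the longest class, while PTPRK, also over 300 kb, lay on the other side. Of genes with a run, many were long: 36 of the 50 genes with a GapmeR2 run span over 100 kb. Within that length class, 29 of the 36 (80.6%) were called lower with GapmeR2, beside 891 of 2403 genes (37.1%) without such a run. At 100 kb or less the counts were 8 of 14 (57.1%) and 1380 of 12260 (11.3%). For GapmeR1 runs, 10 of 29 long genes (34.5%) and 9 of 15 shorter ones were called lower with GapmeR1, beside 7.97% and 16.8% of those without.

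**Figure D4:**
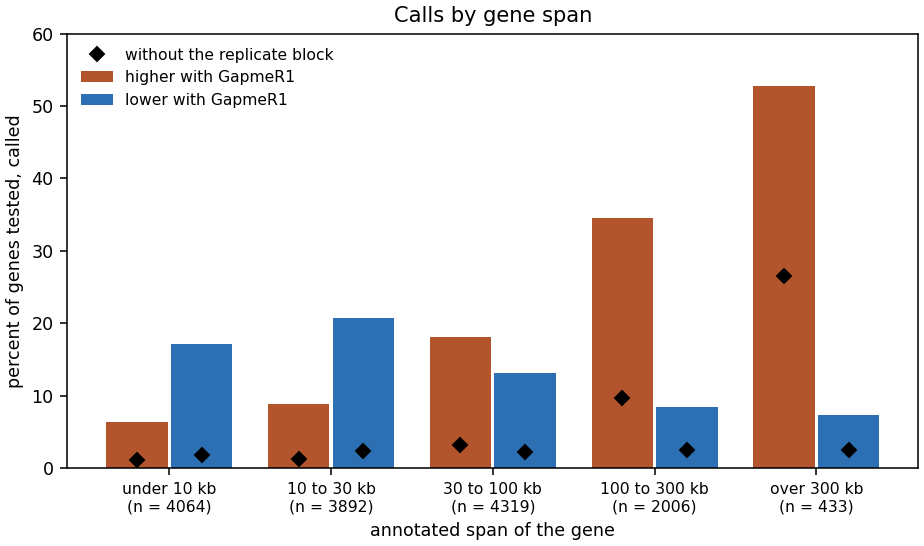
Percent of the genes tested (y axis) that were called higher (orange) or lower (blue) with GapmeR1 in 5 classes of annotated span (x axis), and the same without the replicate block (diamonds). The share higher rises from 6.37% to 52.7% with span while the share lower ends at 7.39%.

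Gene lists show how the difference was distributed over cell functions, each read against 15.6% of all genes higher and 15.3% lower with GapmeR1, or 3.72% and 2.19% without the block. Without replicate 2 fewer members were called in many lists, and such counts are given where they moved by more than 1.5 times. B-lineage and leukemia transcription factors were called on both sides, 18 of 38 higher and 9 lower (7 and 1 without the block; 5 lower without replicate 1 and 4 without replicate 2). SPIB, an ETS factor of B cells, had 8.45, 10.6 and 9.61 CPM with GapmeR1 and 2.85, 3.52 and 3.24 CPM with GapmeR2, with the controls in between at 5.18 to 6.54 CPM. IKZF3 (Aiolos), IKZF2 (Helios) and MYCN were higher with GapmeR1 at 1.41, 0.73 and 0.88, whereas ZEB1, ID3, an inhibitor of E proteins, and SPI1 (PU.1), the myeloid and B-cell ETS factor, were lower at -3.03, -0.41 and -0.31. IKZF3 was low, at 1.30, 1.73 and 1.94 CPM against 0.349, 0.727 and 0.809 CPM, with as few as 6 reads. MYCN had 1.51, 0.819 and 0.818 CPM against 0.873, 0.447 and 0.405 CPM. Its groups overlapped, its reads ran from 7 to 29, and it was not called without the block. PAX5 and EBF1, which define B-cell identity, were not called, at -0.09 and 0.09. Among genes of the pre-B receptor and its proximal signalling, 14 of 34 were higher and 7 lower (1 and 2 without the block). Without replicate 2 these counts were 5 and 4, and 8 were higher without replicate 1. PRKCB, a protein kinase C of B-cell receptor signalling, VPREB3 and CD79A, a signalling chain of that receptor, were higher at 0.47, 0.44 and 0.36. The kinases FYN and BTK and the adaptor BLNK were lower at -1.28, -0.34 and -0.31. FYN had 33.1, 35.6 and 43.8 CPM with GapmeR1 against 84.8, 80.3 and 111 CPM. Of 14 V(D)J recombination and end joining genes, 8 were higher, led by LIG4, XRCC4 and RAG2, and DNTT, which adds untemplated nucleotides, was lower at -0.32 (1 and 1 without the block, and 4 higher without replicate 2).

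Surface molecules of B-cell leukemia also divided, with 7 of 25 higher and 8 lower (2 and 2 without the block). CXCR4, the receptor for CXCL12 that retains precursors in the marrow, had 440, 439 and 368 CPM with GapmeR1 and 234, 219 and 223 CPM with GapmeR2, a 1.86-fold difference (adjusted p = 1.77e-13) with controls of 231 to 307 CPM. CD38 (0.69) and MS4A1 (CD20, 0.75) were higher too, while CD34 (-1.42) and the integrins ITGA5 (-0.51) and ITGA6 (-0.46) were lower with GapmeR1. CD34 was low in both groups, at 0.678, 0.963 and 1.07 CPM against 1.92, 2.63 and 2.83 CPM, from 13 to 49 reads. The B-cell precursor markers, which overlap this list, were higher in 7 of 12 and lower in 1 (1 and 1 without the block, and 4 higher without replicate 1 or 2). MHC class II genes, which present peptides to helper T cells, were lower with GapmeR1 in 13 of 16 cases and higher in 1, with a median log2 fold change of -0.32 beside 0.00 over all genes (5 lower and 0 higher without the block). HLA-DRB5 was at -0.47, and HLA-DQB1 had 164, 177 and 184 CPM against 216, 228 and 277 CPM, without overlap. Reads of the HLA genes can be split among close relatives and alleles, so single members are uncertain. RFXAP, a subunit of the factor that activates these promoters, was the member called in the other direction.

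Among interferon-stimulated genes and nucleic acid sensors, the members called were mostly lower with GapmeR1. Of 40 interferon-stimulated genes, 22 were lower and 1 higher, with a median of -0.25 (5 and 0 without the block), and of 28 nucleic acid sensors and adaptors 9 were lower and 0 higher (1 and 0 without the block). Without replicate 2, 13 and 4 were lower. OAS3, which makes the 2-5A messenger in response to double-stranded RNA, had 28.8, 26.9 and 29.7 CPM with GapmeR1, 44.7, 49.4 and 44.9 CPM with GapmeR2 and 25.2 to 31.4 CPM in the controls. BST2 (tetherin) had 57.3, 58.3 and 50.1 CPM against 77.8, 82.1 and 84.4 CPM, and the controls 51.5 to 64.8 CPM. For both genes the GapmeR1 libraries were at the control level or close to it and the GapmeR2 libraries above all controls. IFIT1 (-0.63), OAS1 (-0.53), TLR3 (-0.50) and IFITM3 (-0.50) were also lower with GapmeR1, and HERC5 was higher at 0.19. Their place beside the controls varied. For IFITM3 all GapmeR2 libraries lay above every control, but for IFIT1, OAS1 and TLR3 the GapmeR2 libraries overlapped the control range. For IFIT1 the GapmeR1 libraries (6.52, 5.78 and 5.72 CPM) lay below the controls of 6.69 to 8.27 CPM.

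In the lists of translation and respiration more members were called lower than higher with GapmeR1, mostly by small amounts. Of 78 cytosolic ribosomal protein genes, 77 were called lower and 0 higher, at a median of -0.21, but only 1, RPS19, was called without the block. RPS19 had 790, 808 and 721 CPM against 937, 986 and 962 CPM. RPS10 and RPL17, at -0.52 and -0.33, have many processed copies that can take reads. Mitochondrially encoded proteins were lower in 8 of 13 cases (median -0.18), nuclear-encoded respiratory chain subunits in 25 of 40 (median -0.13), and neither list had a member called higher or a member called without the block. Without replicate 2, 12 of the respiratory chain subunits were lower. Ribosome biogenesis genes were lower in 23 of 78 cases and higher in 3 (1 and 0 without the block). Without replicate 2, 13 were lower and 1 higher, with 1 higher also without replicate 1 and 5 without replicate 3. RBM28 apart, the members named by size lay between -0.28 and 0.35: POLR1C, NOP16, HEATR1, UTP4 and NVL.

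In the lists of mitosis and DNA replication all members called were higher with GapmeR1. Of 37 mitosis genes, 26 were higher with GapmeR1 and 0 lower, at a median of 0.19, and of 37 DNA replication genes 12 were higher and 0 lower, at a median of 0.08 (1 and 0 without the block in each list). Without replicate 2, 6 replication genes were higher. CDC25C, a phosphatase that triggers entry into mitosis, had 21.0, 24.9 and 19.8 CPM against 16.4, 16 and 14.3 CPM. CENPF, a kinetochore protein, had 661, 641 and 499 CPM against 538, 529 and 331 CPM, which overlap although GapmeR1 was the higher in each pair. CCNA2 was higher at 0.33, and POLA1, a DNA polymerase subunit, RFC3 and CDC6 at 0.54, 0.35 and 0.27. CCND2 as described lay on the opposite side. Of 30 p53 target genes, 5 were higher and 6 lower (0 and 2 without the block), with CDKN1A (p21) at -0.45, TP53I3 at -0.43 and BAX at -0.30 against BTG2 at 0.39 and MDM2 at 0.23. In the BCL2 family 4 of 18 were higher and 3 lower (1 and 1 without the block, 2 higher without replicate 2 and 5 lower without replicate 3). The shares higher and lower were 16.7% and 20.0% for p53 targets and 22.2% and 16.7% for the BCL2 family. Over all genes tested they were 15.6% and 15.3%. HRK, a pro-death BH3-only protein, had 13.3, 15 and 17.0 CPM with GapmeR1 against 5.93, 6.15 and 8.79 CPM, and the effectors BAX and BAK1 and the activator BID were lower with GapmeR1.

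In each of the following stress, signalling and metabolic lists, a minority of members was called with the block. Cholesterol and fatty acid synthesis apart, the shares called in either direction ran from 32.1% to 48.1%. Over all genes tested 30.9% were called. Of 28 genes of the amino acid and integrated stress response, 9 were higher and 0 lower, led by TRIB3 (0.54), DDIT3 (0.46) and WARS1 (0.39), and none was called without the block. The count was 3 without replicate 2 and 19 without replicate 3. TRIB3 differed more between replicates than between GapmeRs, with 249, 185 and 526 CPM against 167, 112 and 425 CPM. Of 25 genes of the unfolded protein response, 7 were higher and 3 lower, with DNAJB9, XBP1 and HERPUD1 at 0.41, 0.34 and 0.31 against the chaperones CALR, PDIA4 and PDIA6 at -0.19, -0.15 and -0.14, and again none without the block. Without replicate 2 these counts were 4 and 0, and 6 were lower without replicate 3. Cytokine receptor and JAK-STAT genes were higher in 4 of 25 cases and lower in 8 (0 and 3 without the block, 2 and 4 without replicate 2, and 1 higher without replicate 1). SOCS2, a feedback inhibitor of cytokine receptors, had 31.8, 31.0 and 22 CPM against 66.4, 72.5 and 49.0 CPM, and PIM3 and STAT6 were lower at -0.43 and -0.33. Immediate early and MAPK feedback genes were 6 higher and 7 lower of 27, with JUN at 0.42 and FOS at -0.54, and NF-kB targets 8 higher and 2 lower of 21, led by ICAM1 at 0.63, LTB at 0.40 and RELB at 0.44. Neither of these lists had a member called without the block, and without replicate 2 the counts were 3 lower in the former and 4 higher in the latter. Glycolysis and hypoxia genes were 4 higher and 8 lower of 32 (1 and 2 without the block), with EPAS1, the hypoxia factor HIF-2α, at 0.91 and PFKM, a muscle-type phosphofructokinase, at -0.42. Cholesterol and fatty acid synthesis genes were called at 4 higher and 4 lower of 32, which is near the background, and none without the block. The 4 higher became 2, 0 and 9 without replicates 1, 2 and 3.

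Lists close to the GapmeRs themselves or to the genes above gave the following. Lysine methyltransferases were higher with GapmeR1 in 9 of 33 cases and lower in 3 (3 and 0 without the block), with SMYD3 at 2.79, EHMT1, an H3 lysine 9 methyltransferase, at 0.84 and NSD3 at 0.31. EHMT1 had 146, 156 and 136 CPM with GapmeR1 and 80.8, 85.7 and 80.4 CPM with GapmeR2. Receptor-type tyrosine phosphatases, which remove phosphate from tyrosines at the cell surface, were called in 8 of 11 cases. PTPRD, PTPRM and PTPRG were higher with GapmeR1 at 1.56, 1.5 and 1.34, and PTPRB and PTPRK lower at -1.85 and -1.18 (3 higher and 2 lower without the block). Among RNase H, exonuclease and paraspeckle genes, 8 of 27 were called, 3 higher and 5 lower (0 and 1 without the block, and 3, 1 and 3 lower without replicates 1, 2 and 3). NEAT1, the architectural non-coding RNA of paraspeckles, had 215, 187 and 176 CPM with GapmeR1 against 451, 386 and 387 CPM with GapmeR2, beside 321 to 467 CPM in the controls. RNASEH2B and RNASEH2C, accessory subunits of RNase H2, were at 0.20 and -0.17. Of 8 tested adhesion and epithelial state genes linked to ZEB factors, CTNND1 was higher at 0.22 and ZEB1 itself lower, and none but ZEB1 was called without the block.

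**Figure D5:**
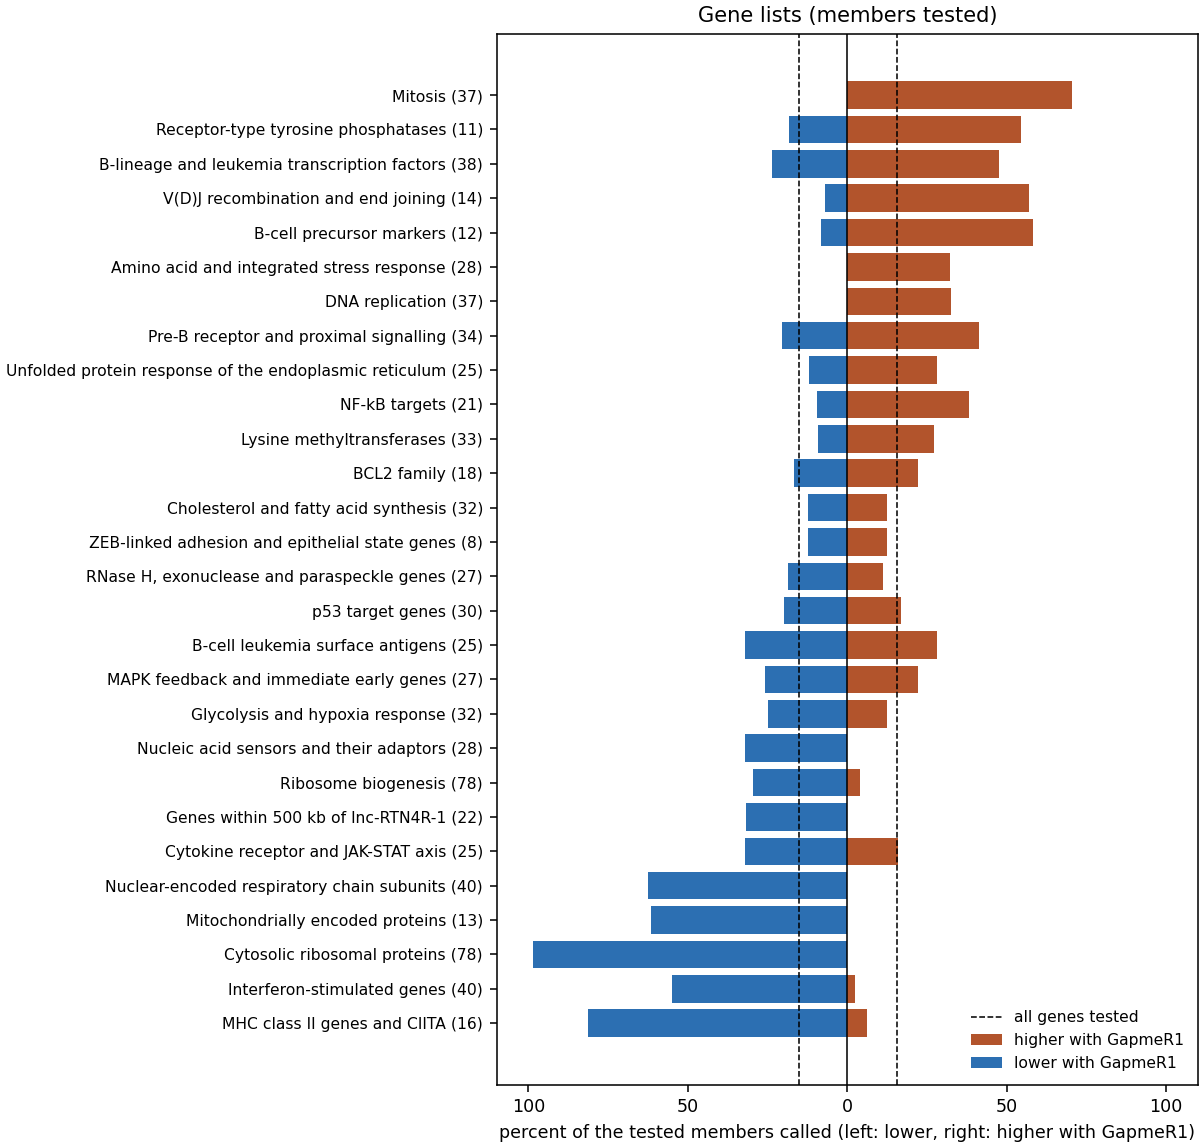
Percent of the tested members of each gene list (number in brackets) called higher (orange, to the right) or lower (blue, to the left) with GapmeR1; dashed lines mark the shares over all genes tested, 15.6% and 15.3%. Mitosis genes stand furthest to the right at 70.3% and cytosolic ribosomal proteins furthest to the left at 98.7%.

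At the locus itself, 22 genes within 500 kb of lnc-RTN4R-1 were tested, and 7 were lower with GapmeR1 and 0 higher, with a median of -0.11 (1 and 0 without the block, and 3 lower without replicate 2). The share called, 31.8%, is near the 30.9% called over all genes tested, of which 15.3% were lower and 15.6% higher. Whether the position near the target matters was not tested. DGCR8, the RNA-binding partner of the microRNA-processing nuclease DROSHA, had 78.1, 83.4 and 66.0 CPM against 98.3, 109 and 89.9 CPM (1.29-fold, adjusted p = 9.68e-07), and the control range of 77.1 to 97.1 CPM overlapped both groups. ZNF74, TXNRD2, ZDHHC8, RTN4R and DGCR6L were lower at -0.32, -0.29, -0.26, -0.20 and -0.18. RTN4R, the Nogo receptor for which the transcript is named, had 61.3, 66.6 and 65.3 CPM against 66.3, 80.7 and 77.7 CPM, which overlap. The study names PTPRK, GBA3 and AK7 for lnc-RTN4R-1. It took them as lower with both GapmeRs together, highly expressed in ETV6/RUNX1-positive patients and lower after knockdown of the fusion. The patient and fusion knockdown data are separate from these libraries. The first criterion rests on libraries that include these, so the choice is not independent of them. PTPRK had 120, 116 and 99.4 CPM with GapmeR1 against 273, 274 and 219 CPM with GapmeR2, 2.26-fold apart (log2 fold change -1.18 ± 0.04 SE, adjusted p = 6.1e-17), and the controls 261 to 359 CPM. GBA3, a cytosolic beta-glucosidase, had 59.4, 60.8 and 54.0 CPM against 64.6, 60.5 and 52.0 CPM, with a difference of -0.01 ± 0.05 (SE) and an adjusted p of 0.942. AK7, an adenylate kinase, had 70.4, 78.1 and 51.4 CPM against 77.8, 87.3 and 60.1 CPM, lower with GapmeR1 by 1.12-fold (adjusted p = 0.0133, and 0.625 without the block), with control levels of 60.3 to 99.8 CPM.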

How the data were processed

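Total RNA of REH cells was sequenced with strand kept, by ribodepletion according to the labels and by poly-A selection according to the methods. The deposited read counts per gene were made by the authors with STAR on hg38, with no normalization. The annotation release is not given in the sources used here. The reverse-strand column was used, and 56434 of 60619 gene IDs matched GENCODE names. Genes passing filterByExpr (minimum count 10) were fitted with edgeR 4.0.16 (TMM, robust quasi-likelihood, Benjamini-Hochberg) on the 6 libraries with the replicate number as a block. The numbers pair the samples: deviations from the group mean correlated at 0.309, 0.356 and 0.544 between same-numbered libraries, and the methods place replicates on different days. Replicates of a group differed by more than sampling noise. Levels are CPM on TMM library sizes over 27 libraries. The fit with the block was also run on simulated counts with known folds, and the outcome is not reported here. Alternatives were a fit without the block, DESeq2 1.42.0, other normalization, filters, strand and samples, a 1.5-fold test and leaving out each replicate. Members and gene lists were chosen with earlier results of these data known. Named genes were lnc-RTN4R-1 and genes within 500 kb, PTPRK, GBA3 and AK7, the 12 largest called differences per direction (at least 3 CPM in the higher group, 3 of 3 pairs), the 5 smallest p per direction, up to 3 called genes per list and direction, and called genes with a site of at most 1 mismatch. Outside this rule, and chosen after their values were seen, are genes named for a run (MAP4K3, RALGPS2, CD47, PRR5L, RTTN), genes with a site that were not called, and SCMH1, PAX5, EBF1 and IKZF2. Of the genes called within 500 kb, 1 is not reported here.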

Additional observations from a re-analysis of the deposited data

How the results depend on the processing

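With no replicate block 882 genes were called, 555 higher and 327 lower with GapmeR1, and 143 of those higher were at least 2-fold apart. DESeq2 with the replicate number in its design called 2147 genes, 1111 higher and 1036 lower, of which 165 were at least 2-fold apart and 119 of these higher. A test against a 1.5-fold change, a stricter hypothesis by construction, called 232 genes, 171 higher and 61 lower, 175 of them at least 2-fold apart and 128 of these higher. A minimum of 10 counts in every library, which tests fewer genes, left 167 genes at least 2-fold apart, 119 of them higher. Leaving out 1 replicate number in turn gave 2786 to 4646 genes, 1449 to 2418 higher and 1337 to 2228 lower, with the low end without replicate 2. Other normalization, no filter, unstranded counts and a fit of all 27 libraries left these counts within 1.5 times. The target difference stayed positive and short of the threshold in every alternative run, at log2 fold changes of 0.24 to 0.40. In place of a site with 1 mismatch, a run of at least 13 gave 43.2% of 44 genes called lower with GapmeR1, and for GapmeR2 up to 2 mismatches gave 43.2% of 264 genes and 45.5% of 22 genes in exons only. Of the genes named, GBA3 ranged from -0.042 to 0.038 and SCN1A-AS1 from -0.232 to 0.226 when a replicate was left out, and SCN1A-AS1 was at -0.021 with DESeq2, neither being called. Beyond what the construction of an alternative gives, the cause was not tested. The depth of 59 to 135 reads limits the target comparison, and 3 libraries per group from 1 cell line limit all of them.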
